A study of Homo sapiens with 2 samples.

Results

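The leukocyte integrin genes ITGAM, ITGB2, ITGAL, ITGA4, ITGA5 and ITGB1 were taken by gene name from the deposited expression values, which list 11619 genes. All 6 were found in both libraries. RNA came from NB4, a human cell line of acute promyelocytic leukemia (APL) that carries the PML/RARα fusion, grown as a suspension culture. Cells of the sh-CRNDE group were infected with a lentivirus for an shRNA against the long non-coding RNA CRNDE, and cells of the sh-Control group with a lentivirus for a non-targeting shRNA. Both were harvested on day 3. The vector also carries the fluorescent protein ZsGreen1, by which the study selected stable lines. There was 1 library per group, from 1 cell line, so no difference below could be set against the spread between cultures, and the effect of the knockdown and that of the library cannot be separated. Values are FPKM, that is fragments per kilobase of a transcript, relative to all mapped fragments, and the sequencing depth is unknown.

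Integrins are adhesion receptors made of an α and a β chain, and each cell shows only the pairs whose chains it makes. The β2 chain, CD18, is encoded by ITGB2 and is found on leukocytes. It pairs with αM (CD11b, from ITGAM) to form Mac-1, with αL (CD11a, from ITGAL) to form LFA-1, and with αX (CD11c, from ITGAX). The β1 chain, CD29, is encoded by ITGB1 and is made by most cell types. It pairs with α4 (CD49d, from ITGA4) to form VLA-4, a receptor for VCAM1 and fibronectin, and with α5 (CD49e, from ITGA5) to form VLA-5, a fibronectin receptor. CD11b on the cell surface rises as granulocytes mature, and it was the differentiation marker of the study. By flow cytometry, the study reported more CD11b-positive NB4 cells after CRNDE knockdown. The RNA values below give no surface protein.

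The study addressed CRNDE as an RNA that binds the miR-181 family. The mature members are shown because their shared seed, bases 2 to 8 in capitals, is the part that pairs with target RNAs (sequences from RefSeq, GRCh38.p14).
hsa-miR-181a-5p: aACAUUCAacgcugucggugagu
hsa-miR-181b-5p: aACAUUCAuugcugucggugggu
hsa-miR-181c-5p: aACAUUCAaccugucggugagu
hsa-miR-181d-5p: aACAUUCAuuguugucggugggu

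The seed match TGAATGT was searched on the coding strand of the longest annotated 3' UTR of each gene (GENCODE release 44). Among the integrin genes, only ITGB1 held it, with 1 match in its longest 3' UTR. Of 9910 listed protein-coding genes with a 3' UTR, 22.4% held the match. The ITGB1 match lies on the minus strand of GRCh38, in a window at chr10:32907888-32907914, and is shown with 10 bases on each side and the match in capitals.
ITGB1 window: agaatagcttTGAATGTggccccaaca
This window is not part of the canonical transcript of ITGB1. A match is a letter pattern and not a measured site, and the deposited values are per gene, so transcripts with and without it were not separated.

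The knockdown was checked on its target. CRNDE (ENSG00000245694) had 5.92 FPKM in sh-Control against 1.85 FPKM in sh-CRNDE, for a change of -1.28. The change of a gene is log2(FPKM + 1) in sh-CRNDE less the same in sh-Control, and the added 1 understates the change of low genes. A change past 1.5-fold, 0.585 on the log2 scale, was the study's threshold, and 17.2% of the 11619 genes were past it, 8.38% higher and 8.83% lower in sh-CRNDE. Of 7 myeloid and primary granule markers, 6 were listed, between 3.74 and 1135 FPKM, and all 6 were lower in sh-CRNDE, 4 of them past 1.5-fold. MPO, the granule peroxidase, had 1135 FPKM in sh-Control against 737.6 FPKM in sh-CRNDE, for a change of -0.62. MPO was under the threshold, at -0.43, once the median change of genes of like GC content was taken off, and at -1.54 after quantile normalization. The GC step left 3 of the 6 markers past 1.5-fold lower, beside 6.97% of all listed genes with a GC value. These were PRTN3 (-2.23 before and -1.85 after the step), AZU1 (-1.09 and -0.71) and CTSG (-0.96 and -0.85). None of the 2 stem cell, 4 erythroid and 3 platelet markers looked for was listed (the platelet integrin gene ITGA2B, which was not in that list, is given with the other subunits), and of the T and B cell markers, CD3D and CD79B were between 0.992 and 3.38 FPKM. EPCAM, the listed one of 7 epithelial and fibroblast markers, was at 4.82 and 4.49 FPKM. In bulk RNA, fewer cells that make a gene and less of its RNA per cell cannot be told apart.

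Between the libraries, the α4 gene and the α5 gene changed places. ITGA4 was past 1.5-fold higher in sh-CRNDE and ITGA5 past 1.5-fold lower, while ITGB1, their common β chain gene, ITGAM, ITGB2 and ITGAL were not past it. So 2 of the 6 genes were past 1.5-fold, 1 in each direction, beside 17.2% of all listed genes. All but ITGAL reached 1 FPKM in both libraries. Of these 5 genes, 1 was higher and 1 lower, beside 14.1% past 1.5-fold in either direction of the 8773 genes at that level. The median change of the 6 genes was 0.07, and that of all listed genes -0.01. Their summed level was 61.97 FPKM in sh-Control against 63.1 FPKM in sh-CRNDE.

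**Figure D1:**
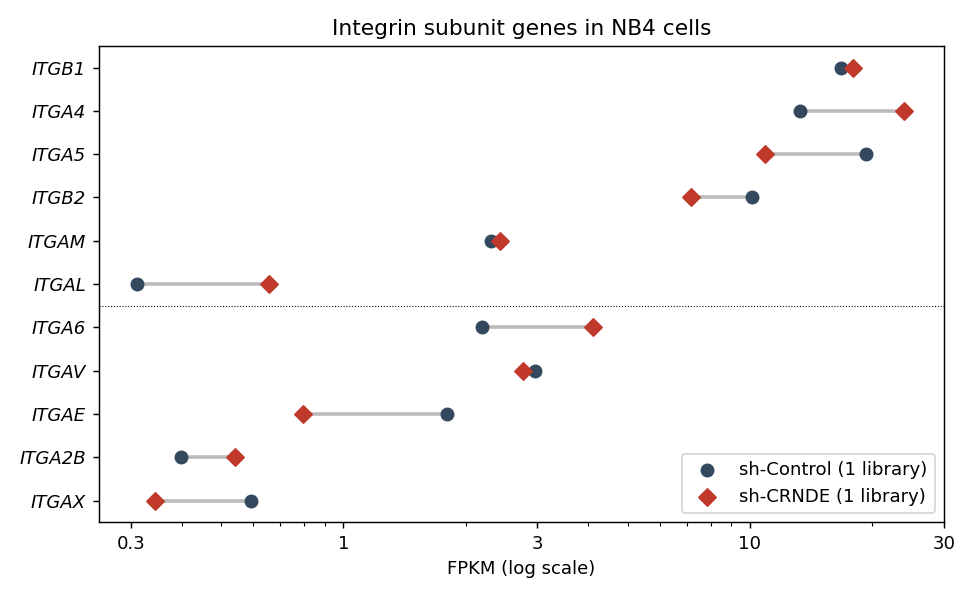
FPKM, on a log axis, of the 11 listed integrin subunit genes in the sh-Control library (circle) and the sh-CRNDE library (diamond), 1 library each, with no error bars because there were no replicates. The 6 leukocyte integrin genes stand above the dotted line, and the points of ITGA4 and ITGA5 lie in opposite order.

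ITGA4 (ENSG00000115232) lies on the plus strand of chromosome 2, from 181457202 to 181538940 (GRCh38), and its canonical transcript has 28 exons. It had 13.2 FPKM in sh-Control against 24.0 FPKM in sh-CRNDE. The change was 0.81, and 95.1% of all listed genes had a lower one. In level, it stood below ITGA5 and ITGB1 in sh-Control and above all of the other members in sh-CRNDE. The end of ITGA4 overlaps CERKL, a gene on the opposite strand, over 2813 exonic bases. All of these lie in the canonical ITGA4 transcript, which is 6781 bases long. CERKL had 4.41 FPKM in sh-Control against 6.77 FPKM in sh-CRNDE, for a change of 0.52. The library kit named in the labels does not mark strand, so reads of the shared bases cannot be assigned from the reads alone, and their part in the ITGA4 value was not tested.

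ITGA5 (ENSG00000161638) lies on chromosome 12, minus strand, from 54395261 to 54419266, with 30 exons. It had 19.3 FPKM in sh-Control, the highest of the 6 genes there, against 10.9 FPKM in sh-CRNDE, where ITGA4 and ITGB1 were above it. The change was -0.77, and 5.37% of all listed genes had a lower one. A fold of 1.77 separated the FPKM values, against 1.81 for ITGA4 in the other direction. Both genes were between 1.5-fold and 2-fold. GPR84-AS1, antisense to ITGA5, shares 48 exonic bases with it and was not among the listed genes, so it has no value here.

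Because FPKM is per length and a ratio of genes within a library does not depend on how that library was scaled, levels of the chains were also compared within each library. The ratio of ITGA4 to ITGA5 was 0.687 in sh-Control and 2.20 in sh-CRNDE, a 3.20-fold difference. ITGB1 (ENSG00000150093; chromosome 10, 32887273 to 33005792, minus strand, 16 exons) had 16.7 FPKM in sh-Control against 17.9 FPKM in sh-CRNDE, for a change of 0.09. Of the α chain genes whose products can join β1, 4 were listed, ITGA4, ITGA5, ITGA6 and ITGAV. Their sum was 37.7 FPKM in sh-Control against 41.8 FPKM in sh-CRNDE, that is 2.25 and 2.33 times ITGB1. ITGA4 made up 35.2% of this sum in sh-Control and 57.4% in sh-CRNDE. ITGA5 made up 51.2% and 26.1%. In these 2 libraries, the summed α chain level per ITGB1 was alike, and the shares of ITGA4 and ITGA5 were not. The changes of ITGA4 and ITGA5 lay 1.58 apart on the log2 scale. They lay 1.21 apart once the median change of genes of like GC content was taken off. The part of GC content, and of the bases that ITGA4 shares with CERKL, in these ratios and shares was not tested. Some of the 4 α chains also join other β chains, and of the 8 β chain genes looked up only ITGB1 and ITGB2 were listed.

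**Figure D2:**
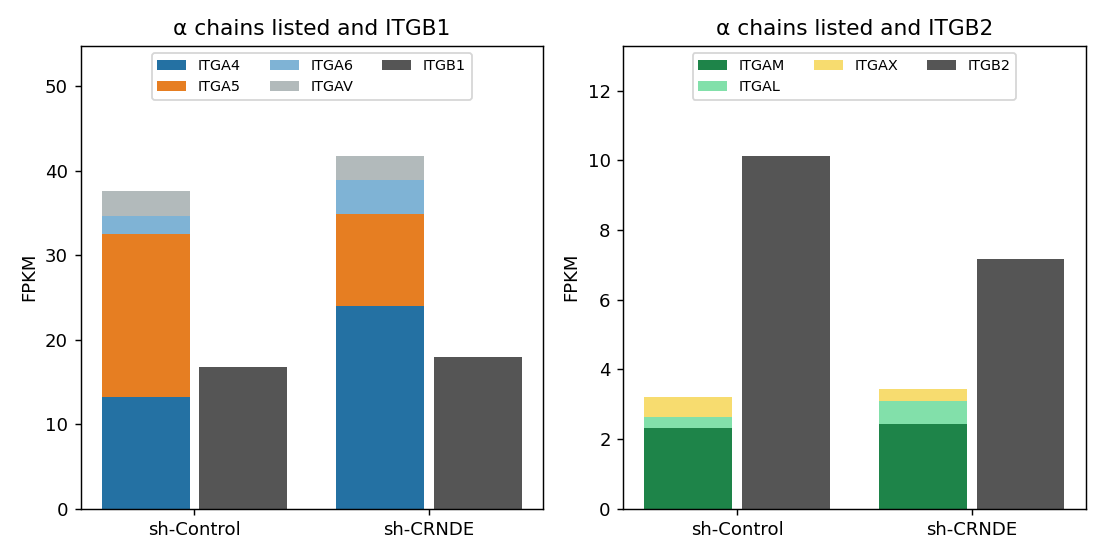
FPKM of α chain genes, stacked, beside the gene of the β chain that their products join, in 1 sh-Control and 1 sh-CRNDE library (left, ITGB1; right, ITGB2; the vertical scales differ). ITGA5 takes 51.2% of the left stack in sh-Control and 26.1% in sh-CRNDE, while ITGAM takes 71.8% and 70.8% of the right stack.

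ITGAM, the CD11b gene, was near the same level in both libraries. ITGAM (ENSG00000169896) lies on the plus strand of chromosome 16, from 31259967 to 31332892, with 30 exons. It had 2.31 FPKM in sh-Control against 2.43 FPKM in sh-CRNDE, 1.05 times the control, a change of 0.05. Of all listed genes, 36.8% were lower than ITGAM in sh-Control and 38.9% in sh-CRNDE. Without replicates no interval of this difference can be given, so the values do not show that the gene did not change.

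ITGB2 (ENSG00000160255; chromosome 21, 44885953 to 44931989, minus strand, 16 exons), the β chain gene for CD11b, had the lower value in sh-CRNDE. It had 10.1 FPKM in sh-Control against 7.18 FPKM in sh-CRNDE, for a change of -0.44, which is 1.41-fold and under the threshold. Of all listed genes, 13.8% had a lower change. ITGB2-AS1, a long non-coding RNA on the opposite strand, shares 303 exonic bases with ITGB2, none of them in the canonical ITGB2 transcript. ITGB2-AS1 was not among the listed genes, so it has no value here.

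ITGAL (ENSG00000005844; chromosome 16, 30472658 to 30523567, plus strand, 31 exons) encodes the α chain of LFA-1 and was the lowest of the 6 genes in both libraries. It had 0.311 FPKM in sh-Control against 0.657 FPKM in sh-CRNDE, for a change of 0.34. The plain ratio of these values was 2.11. The change depended on the pseudocount, and was 0.88 with 0.1 FPKM and 1.06 with 0.01 FPKM in place of 1, each past 1.5-fold. Every listed gene is above 0.5 FPKM in at least 1 library, and ITGAL met this floor in sh-CRNDE alone, the library where it was higher, so its direction is not independent of the listing. At this level and unknown depth, the number of fragments behind the value cannot be given. Exons of 2 antisense long non-coding RNA genes overlap its exons as well.

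Among the β2 partners, 3 α chain genes were listed, ITGAM, ITGAL and ITGAX. Their sum was 3.21 FPKM in sh-Control against 3.43 FPKM in sh-CRNDE, and ITGB2 was 3.15 times this sum in sh-Control and 2.09 times in sh-CRNDE. ITGAM was 71.8% of the sum in sh-Control and 70.8% in sh-CRNDE. ITGAL was 9.68% and 19.2%, and ITGAX, which encodes CD11c, was 18.5% and 10.0%. ITGAX met the floor in sh-Control alone, and ITGAL in sh-CRNDE alone, so these opposite shifts are given as values and nothing is read from them. The ratio of ITGB1 to ITGB2 was 1.65 in sh-Control and 2.50 in sh-CRNDE. The order of levels was therefore ITGA5, ITGB1, ITGA4, ITGB2, ITGAM and ITGAL in sh-Control, and ITGA4, ITGB1, ITGA5, ITGB2, ITGAM and ITGAL in sh-CRNDE. Whether neighbours in this order differ beyond the spread between cultures cannot be said from 1 library each.

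The 6 genes differed in GC content, and across all genes the change fell as GC content rose. The canonical transcripts of ITGA4 and ITGB1 held 39.0% and 39.5% GC, those of ITGAM and ITGAL 54.3% and 55.3%, and those of ITGA5 and ITGB2 58.0% and 59.5%. Over all genes that reached 1 FPKM in both libraries, the median change was 0.16 for the 2424 genes under 42% GC and -0.25 for the 2218 genes over 56% GC. With the median change of the matching GC bin taken off, ITGA4 was at 0.63, still past 1.5-fold, and ITGA5 at -0.578, just under it. The changes of ITGA4 and ITGA5 lay 1.58 apart on the log2 scale before and 1.21 apart after this step. ITGB2 moved to -0.22, ITGB1 to -0.06, ITGAM to 0.14 and ITGAL to 0.46. The part of GC content in the remaining differences was not tested.

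**Figure D3:**
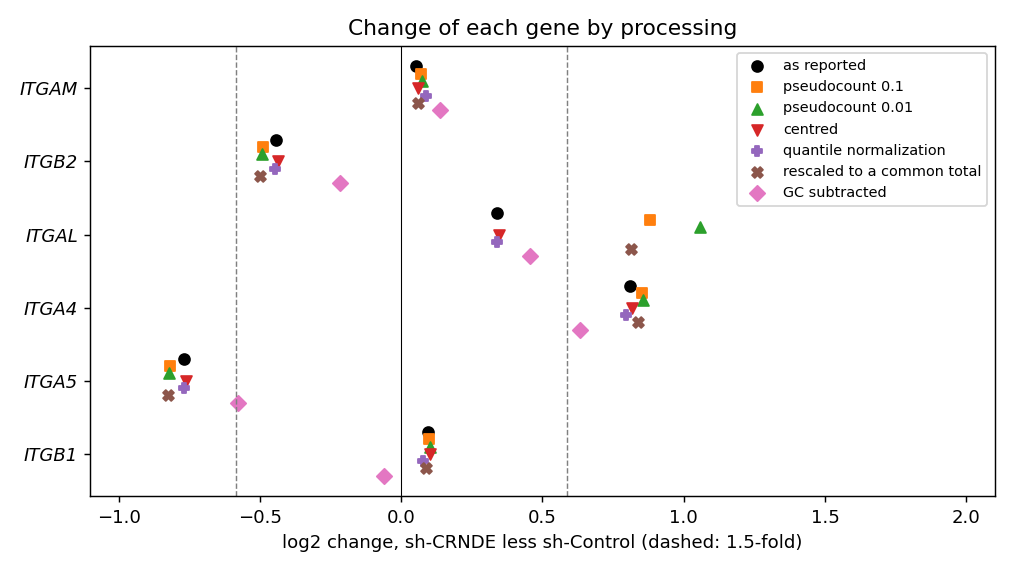
Change of each of the 6 genes as reported and under 6 other ways of processing, with dashed lines at 1.5-fold. ITGA4 stays past the line in all 7, ITGA5 in all but the GC subtraction, and ITGAL passes it with a smaller pseudocount or after rescaling, which makes the added 1 worth 0.141 FPKM (sh-Control) or 0.142 FPKM (sh-CRNDE).

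Of all 26 integrin subunit genes, 11 were listed, 9 for α and 2 for β chains. Besides ITGA4 and ITGA5, the changes of ITGA6 and ITGAE were past 1.5-fold, so that 2 α chain genes were higher and 2 lower. Of all listed genes, 8.38% were higher and 8.83% lower. ITGA6, which encodes a laminin receptor chain, had 2.19 FPKM in sh-Control against 4.11 FPKM in sh-CRNDE, for a change of 0.68. ITGAE, which encodes CD103, the partner of β7 on mucosal lymphocytes, was at 1.79 and 0.797 FPKM, a change of -0.64. After the GC subtraction ITGA6 and ITGAE were at 0.56 and -0.52, under the threshold. ITGAV, a chain of vitronectin receptors, was at 2.96 and 2.77 FPKM, a change of -0.07. ITGA2B, the platelet αIIb gene, was at 0.398 and 0.542 FPKM, and ITGAX at 0.594 and 0.343 FPKM, each above the floor in 1 library. The median change of the 11 genes was 0.05.

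Genes that act with integrins were taken from 7 lists by role, and 79 of their 105 genes were listed. The change of 4 was past 1.5-fold higher and of 7 lower in sh-CRNDE, beside 8.38% and 8.83% of all listed genes, and the median was -0.12. With a pseudocount of 0.1 FPKM, 6 were higher and 16 lower, beside 13.6% and 14.8% of all listed genes, and 7 of the 79 met the listing floor in 1 library only. Inside-out activation, by which talin and kindlin bind the β chain tail and turn the receptor to its high-affinity form, had 12 listed genes with a median change of -0.05. RASGRP2, an exchange factor that loads RAP1, was the gene of this list past the threshold, with 14.9 FPKM in sh-Control against 8.88 FPKM in sh-CRNDE, for a change of -0.69. FERMT3, the kindlin of blood cells and the highest gene of the list, was at 39.7 and 26.5 FPKM, a change of -0.56. Of 6 listed inhibitors of activation, FLNA, which encodes filamin A and competes with talin for the β chain tail, was the highest and was past 1.5-fold lower, at 68.3 and 41.5 FPKM, a change of -0.71. The median of that list was -0.19.

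Downstream of ligand binding, the 12 listed kinases and effectors had a median change of -0.07. SYK, a tyrosine kinase that β2 integrins use to signal in neutrophils, had 9.75 FPKM in sh-Control against 26.4 FPKM in sh-CRNDE, for a change of 1.35. VAV2, a guanine nucleotide exchange factor, was at 3.89 and 1.91 FPKM, a change of -0.75. SYK was also the gene of this list with the highest mean level. The 19 listed adhesion adaptors held none past 1.5-fold. With a pseudocount of 0.1 FPKM, 1 was higher and 2 lower, beside 13.6% and 14.8% of all listed genes. Of the 19, 2 met the listing floor in 1 library only. The highest of the 19, ZYX, had 44.8 FPKM in sh-Control against 29.8 FPKM in sh-CRNDE. Its change was -0.57, and it was past the threshold with the smaller pseudocount at -0.59. The 8 listed integrin ligands had a median change of -0.30 with none past 1.5-fold. With a pseudocount of 0.1 FPKM, 1 was higher and 3 lower, beside the same shares of all listed genes. ICAM1 and ICAM4, both above 1 FPKM in each library, were then at -0.65, and their plain ratios were 1.60 and 1.59. JAM3, also lower at -0.89, met the listing floor in 1 library only. SPP1 was the higher one, at 0.66. ICAM3, a ligand of LFA-1 and the highest of the 8, was at 15.8 and 11.2 FPKM.

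Membrane proteins that lie beside integrins showed changes in both directions. Of 11 genes, 2 were past 1.5-fold higher and 2 lower, beside 8.38% and 8.83% of all listed genes. The median change of the 11 was -0.37, and -0.10 after the GC subtraction. CD47, the integrin-associated protein, had 5.28 FPKM in sh-Control against 10.5 FPKM in sh-CRNDE, for a change of 0.87. The leukocyte tetraspanin gene CD53 was at 6.33 and 11.2 FPKM, a change of 0.74. The tetraspanin genes CD81 and CD82 went the other way, with changes of -1.34 and -0.59. CD81 had 9.22 FPKM in sh-Control against 3.04 FPKM in sh-CRNDE. BSG, which encodes basigin and was the highest of this list, was at 73.9 and 59.96 FPKM.

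Integrins are taken up and recycled through endosomes, and 11 genes of this traffic were listed, with a median change of -0.09. RAB21, a small GTPase that binds the tails of α chains, had 0.427 FPKM in sh-Control against 4.44 FPKM in sh-CRNDE, for a change of 1.93, and met the listing floor in sh-CRNDE alone. ARF6, a GTPase of β1 recycling, was at 30.5 and 8.58 FPKM, a change of -1.72. RAB4A, a GTPase of fast recycling, was at 9.89 and 4.85 FPKM, a change of -0.90. RAB11A, the GTPase of slow recycling and the highest of the list by its mean, was at 22.2 FPKM in both libraries. After the GC subtraction, 5 genes of the 7 lists were past 1.5-fold higher and 3 lower, beside 7.74% and 6.97% of all listed genes with a GC value. RASGRP2 (-0.46), FLNA (-0.44), VAV2 (-0.57) and CD82 (-0.40) were then under the threshold, and DOK1, an inhibitor of activation, was past it with 0.60.

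**Figure D4:**
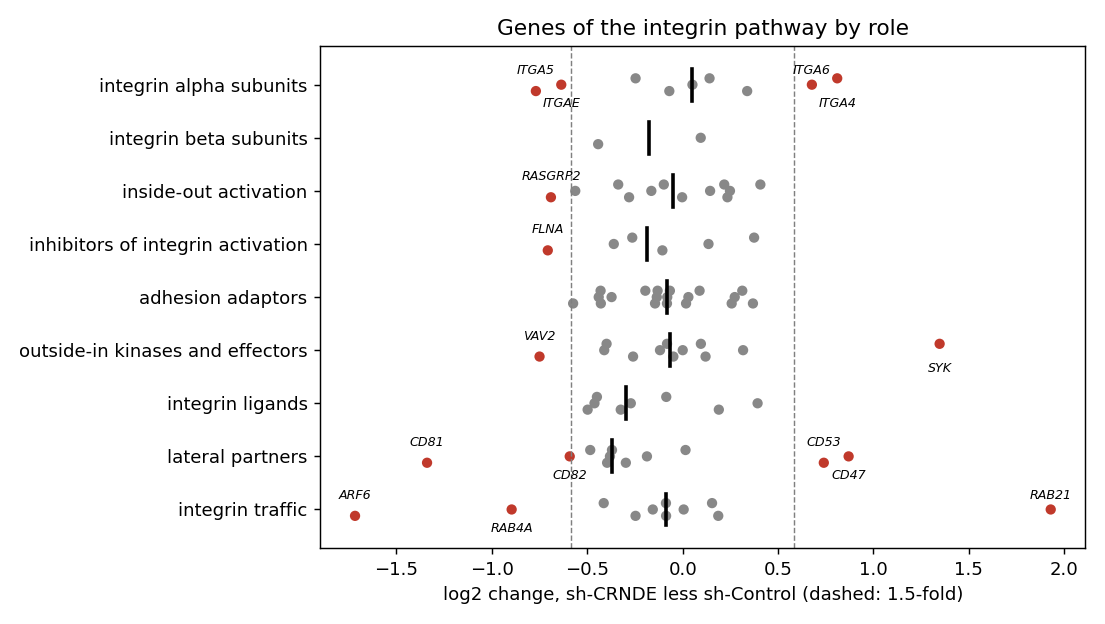
Change (log2, sh-CRNDE less sh-Control) of each listed gene of the integrin subunits and of 7 pathway lists, with 1 point a gene, a bar at the median of each list and dashed lines at 1.5-fold. Genes past 1.5-fold are red and named, and RAB21 (1.93) and ARF6 (-1.72) lie farthest apart in the list of integrin traffic.

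The genes with the values most like those of each integrin gene were found by the distance between log2(FPKM + 1) values over the 2 libraries, which describes no more than 2 values. For ITGA4 these were HSD17B11 (13.0 and 23.9 FPKM in sh-Control and sh-CRNDE; distance 0.02) and GBE1 (13.7 and 23.5 FPKM; distance 0.06). For ITGA5 they were HIST1H2BC (18.96 and 10.8 FPKM; distance 0.02) and IGF2R (19.6 and 11.1 FPKM; distance 0.03). For ITGAM they were LIMS1 and PTGS1, for ITGB2 PKMYT1 and GPAA1, for ITGAL CELA1 and RNF32, and for ITGB1 ACTL6A and GMFG, all within 0.03.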

How the data were processed

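NB4 RNA was sequenced from 1 sh-CRNDE and 1 sh-Control library (TruSeq RNA v2, Illumina MiSeq). The submitters' processing notes name fastp 0.20.0, HISAT2 2.0.4, StringTie 1.2.3 and GRCh38, and the authors deposited FPKM per gene. Every listed gene is above 0.5 FPKM in at least 1 library. FPKM keeps no counts, so depth is unknown and no interval is given. The sum of FPKM was 170373.3 in sh-CRNDE, of which MT-RNR2, listed at 0 in sh-Control, was 16.2%, and 141217.2 in sh-Control. Neither library lists an integrin gene at 0.

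Genes were matched by symbol, and annotation came from GENCODE release 44 by Ensembl identifier (11508 matched). With 1 library per group no test was run, and counts past 1.5-fold stand beside those of all listed genes. The calculations were tested on simulated data. Alternatives were pseudocounts of 0.1 and 0.01 FPKM, median centring, quantile normalization, rescaling to a common total of 1000000 without mitochondrial and small RNA genes (which also shrinks the pseudocount in FPKM), the same to the mean total (chosen after seeing the data), subtraction of the median in 20 GC bins, a 2-fold threshold and a filter at 1 FPKM. The 6 genes and all lists were chosen with earlier results of these data known. The genes named were the 6, listed subunits, list genes past 1.5-fold, each list's highest gene, markers (1 not reported here), overlapping genes and the 2 nearest genes. CERKL, DOK1, ICAM1, ICAM4, JAM3 and SPP1 were chosen after their values were seen. Python 3.11.15, numpy 2.4.6, pandas 2.3.3 and matplotlib 3.10.9 were used.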

Additional observations from a re-analysis of the deposited data

How the results depend on the processing

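Of 111 values recomputed under the alternatives, 90 kept their side of the threshold, or, for counts and ratios, stayed within 1.5 times, and 0 called genes turned direction. ITGAL was past 1.5-fold with a pseudocount of 0.1 (0.88) or 0.01 (1.06) and after rescaling to a common total of 1000000 (0.81). In each case 2 of the 6 genes were then higher. Of all listed genes, 13.6% and 14.2% were higher with these pseudocounts, against 8.38% with 1 FPKM. After the rescaling, 12.8% of the 11487 genes kept were higher. That rescaling also makes the added 1 worth 0.141 FPKM (sh-Control) or 0.142 FPKM (sh-CRNDE). With the totals rescaled to their mean instead, an alternative chosen after seeing the data, ITGAL was at 0.33. Then 1 of the 6 genes was higher and 1 lower, and 4 of the 79 pathway genes were higher and 8 lower. Of the 11487 genes kept in this rescaling, 8.04% were higher and 8.8% lower. After the GC subtraction ITGA5 was at -0.578, which left 0 of the 6 genes lower. Of all integrin subunits 1 was then higher and 0 lower, and 3 pathway genes were lower. Of all listed genes with a GC value, 7.74% were higher and 6.97% lower. ITGB1, not past the threshold, changed sign with the GC subtraction. With a 2-fold threshold, 0 of the 6 genes and 0 integrin subunits were past it in either direction, and 2 pathway genes were higher and 2 lower, beside 3.43% and 3.23% of all listed genes. Under the filter at 1 FPKM, 7 integrin subunits were left, 2 of them higher and 1 lower. Of the 8773 genes that passed this filter, 6.67% were higher and 7.45% lower. The lower pathway genes numbered 16 with a pseudocount of 0.1 or 0.01, where 14.8% and 15.7% of all listed genes were lower, and 17 after rescaling to 1000000, where 14.5% were, against 7. The ITGA4 to ITGA5 ratio and the ITGAM share were recomputed after quantile normalization and with 1 FPKM added per gene. Each stayed within 1.5 times in both libraries. Neither step acts on GC content, and 1 FPKM is small beside ITGA4 and ITGA5, so the ratio was hardly tested. The GC subtraction, which brought the changes of these genes from 1.58 to 1.21 apart, was not among them. The added 1 FPKM lowered the ITGAM share to 53.2% for sh-Control (71.8% without it) and 53.3% for sh-CRNDE (70.8%). No paired analysis was possible because each group has 1 library. The unknown depth limits ITGAL, ITGAX and ITGA2B most, as the lowest of the listed subunits.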
